A study of Mus musculus with 6 samples.

Results

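The receptors through which neutrophils sense formyl peptides, complement fragments and small chemoattractants were examined as 10 genes chosen by name: Fpr1, Fpr2, Fpr3, C5ar1, C5ar2, C3ar1, Ltb4r1, Ptafr, P2ry2 and Hcar2. All 10 were found among the 52636 genes of the expression table. RNA of bone marrow neutrophils was sequenced in 6 libraries from C57BL/6N mice aged 10 weeks, 3 labelled WT and 3 labelled LRP5-null. The LRP5-null mice were LRP5f/f/Lyz2Cre+, that is, they carried floxed alleles of Lrp5, which encodes a Wnt co-receptor, and a Cre recombinase inserted into Lyz2 that acts across myeloid cells and not in neutrophils alone. The labels give the controls as WT only, and whether they carried floxed alleles or Cre was not given. No treatment was given to either group, and nothing in the labels ties a library to a separate mouse, so the p-values measure the spread between libraries, which may be technical.

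These receptors are G protein-coupled receptors that turn a ligand gradient into directed migration, granule release and superoxide production. Most couple to Gi proteins, whose released beta and gamma subunits start phosphoinositide and calcium signalling, and GRKs and arrestins then switch the receptors off. Formyl peptides come from bacteria and mitochondria and C5a from the complement cascade, and both are end-point attractants that override the intermediate signals leukotriene B4 and chemokines.

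The libraries were compared on TPM, the level of a gene's transcripts divided by their length and scaled to 1000000 per library, a measure that allows genes to be set beside each other. Total reads ranged from 249841492 to 340580330 per library. Lrp5 itself was not lower under its label, at 1.29 ± 0.15 TPM in WT and 1.84 ± 0.21 TPM in LRP5-null libraries (SD, n = 3 each), so every direction below rests on the labels. Lyz2, where the Cre is inserted, fell from 25963 ± 1039 to 13792 ± 375 TPM (SD, n = 3 each; log2 fold change -0.91, limma adjusted p = 0.00351). The level of Lyz2 thus went with the label, so what goes with it and what goes with Lrp5 cannot be told apart. Ribosomal RNA took 1.2% and 1.3% of reads in WT replicates 1 and 2 but 3.3% in WT replicate 3 and 2.69% to 2.98% in the LRP5-null libraries, and intronic reads took 7.78% to 9.0% and 10.62% to 11.23%. All 14 neutrophil markers passed the filter, with Ly6g at 1001 ± 94.2 and 1058 ± 20.4 TPM (SD, n = 3 each) in WT and LRP5-null libraries.

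The family of Fpr1 and Fpr2, the receptor genes with the smallest p values below, also holds the pair Fpr2 and Fpr3. Of the pairs of receptor genes that were aligned, this pair was the closest in coding sequence, so the coding sequences of the family are shown first. Fpr1 (ENSMUSG00000045551.7) lies on the minus strand of chr17:18013435-18020904 and Fpr2 (ENSMUSG00000052270.7) on the plus strand of chr17:18024788-18030916 (NCBIM37), with 3883 bases between them, and each has its whole coding sequence in 1 exon. Fpr3 (ENSMUSG00000079700.7) is annotated on the plus strand of chr17:18024816-18108641, because 1 of its 2 transcripts starts inside Fpr2. Over their aligned coding bases, Fpr2 and Fpr3 were identical at 88.2%, Fpr1 and Fpr2 at 71.1%, and Fpr1 and Fpr3 at 70.0%. The longest run that Fpr2 and Fpr3 share is 94 bases long and lies at chr17:18029924-18030017 in Fpr2 and chr17:18107649-18107742 in Fpr3, both on the plus strand. It is shown with the aligned bases of Fpr1 at chr17:18014356-18014449 on the minus strand, where capitals mark the 34 bases that differ from Fpr2.
Fpr2: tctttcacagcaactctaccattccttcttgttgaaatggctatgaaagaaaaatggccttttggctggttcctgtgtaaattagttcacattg
Fpr3: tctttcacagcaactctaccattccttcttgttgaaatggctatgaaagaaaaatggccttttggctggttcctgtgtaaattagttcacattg
Fpr1: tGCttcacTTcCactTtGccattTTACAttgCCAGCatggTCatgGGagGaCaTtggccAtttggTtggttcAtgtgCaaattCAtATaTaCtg

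The stretch of the same length in which Fpr2 and Fpr3 are least alike lies at chr17:18030311-18030404 in Fpr2, with 22 differences in Fpr3 at chr17:18108036-18108129 and 27 in Fpr1 at chr17:18013960-18014053 (minus strand). It shows the kind of sequence by which a read can be placed, again with differences from Fpr2 in capitals.
Fpr2: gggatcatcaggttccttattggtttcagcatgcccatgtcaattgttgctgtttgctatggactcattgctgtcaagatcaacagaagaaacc
Fpr3: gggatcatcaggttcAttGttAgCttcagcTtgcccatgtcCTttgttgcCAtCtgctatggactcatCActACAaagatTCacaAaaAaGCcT
Fpr1: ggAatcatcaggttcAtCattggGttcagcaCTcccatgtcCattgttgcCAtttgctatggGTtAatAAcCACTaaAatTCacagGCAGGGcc

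The read summary lists reads of 94 bases, and at that length only 1 of 1040 windows along the Fpr2 transcript occurs in another gene, namely Fpr3, and 1 of 1175 windows of Fpr3 occurs in Fpr2. The study's methods give a read length of 75 bases, at which 20 of 1059 windows of Fpr2 and 20 of 1194 of Fpr3 are shared between them, as are 26 of 3448 windows of C5ar2 with other genes. At 94 bases none of the 1231 windows of Fpr1 and none of those of the other 7 genes occurs elsewhere in the protein-coding transcripts of GENCODE M1. How the authors' quantification treated reads from the region that both Fpr2 and Fpr3 span, or shared reads, is not given in the sources used here.

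Fpr1 and Fpr2 also differ before their starts, although they point away from each other across a short interval. The 250 bases before each start are given as RefSeq lists them for GRCm38.p6, and the same letters occur once in NCBIM37, at chr17:18020904-18021153 on the minus strand for Fpr1 and chr17:18024538-18024787 on the plus strand for Fpr2. Capitals mark the core of PU.1 sites, GAGGAA on either strand, which was present in Fpr2 and not in Fpr1.
Fpr1: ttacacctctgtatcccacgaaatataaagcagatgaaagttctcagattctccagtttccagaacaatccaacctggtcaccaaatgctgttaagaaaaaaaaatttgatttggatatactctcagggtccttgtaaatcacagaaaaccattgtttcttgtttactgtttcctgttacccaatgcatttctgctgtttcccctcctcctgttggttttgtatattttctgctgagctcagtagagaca
Fpr2: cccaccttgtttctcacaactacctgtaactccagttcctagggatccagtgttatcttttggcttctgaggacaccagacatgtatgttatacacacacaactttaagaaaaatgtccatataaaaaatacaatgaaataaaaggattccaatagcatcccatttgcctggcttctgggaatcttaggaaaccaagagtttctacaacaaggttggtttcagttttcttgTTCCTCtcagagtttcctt

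The PU.1 core was found in the windows of 300 bases around the start of 5 of the 9 receptor genes that RefSeq lists (C5ar2, Fpr2, Fpr3, Ltb4r1 and Ptafr), which is 5 of their 11 windows, since C5ar2 and P2ry2 have 2 each, and in 28.3% of all 32851 windows. The C/EBP letters TTNNGCAA were found in C5ar2 and P2ry2, in 3 of the 11 windows, and in 10.8% of all windows. The AP-1 and NF-E2 core TGANTCA was found only in C3ar1 among the receptor genes and in 7.81% of all windows. Both strands were searched and no 2 of these motifs overlapped in the windows of the receptor genes. These are matches of letters and not sites of binding, and Hcar2 was not listed.

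The receptor transcripts fell into a steep order of levels. Fpr2 was the most abundant at a mean of 1125 TPM over the 6 libraries, ranking between 50 and 75 among all genes of a library, followed by Fpr1 at 716 TPM and by Hcar2, the receptor for niacin and beta-hydroxybutyrate, at 523 TPM. Ltb4r1, the high-affinity leukotriene B4 receptor, came next at 277 TPM, followed by C5ar1 at 220 TPM, Ptafr at 105 TPM, C5ar2 at 15.9 TPM and P2ry2 at 3.29 TPM. C3ar1 at 0.0843 TPM and Fpr3 at 0.0421 TPM were near 0 in every library and did not pass the filter. Without a filter, their limma adjusted p was 0.857 and 0.648. Apart from C5ar1, neighbours in this order did not overlap over the 6 libraries down to P2ry2, whereas C5ar1 reached from below Ptafr to above Ltb4r1.

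**Figure D1:**
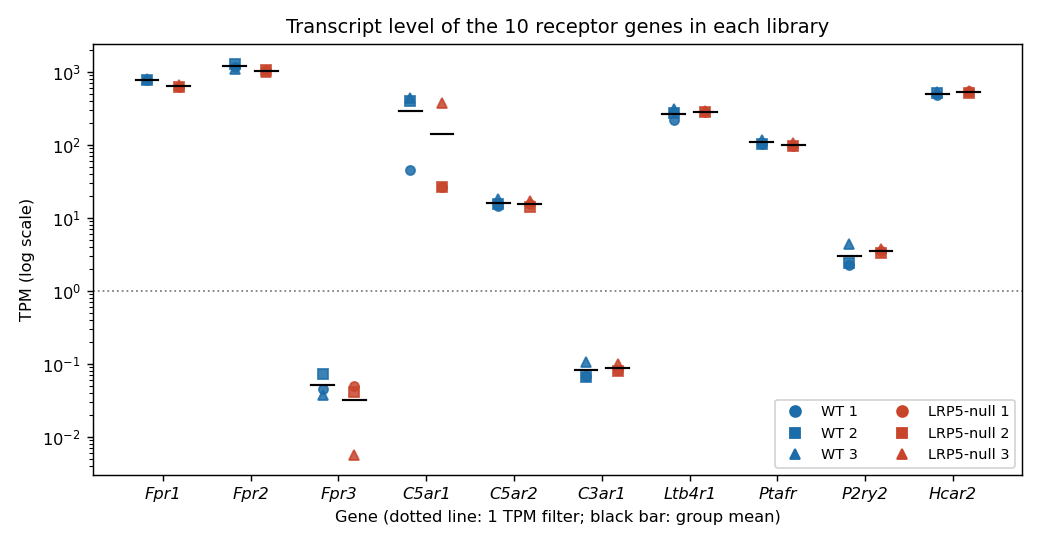
Level in TPM (log axis) of the 10 receptor genes in each of 3 WT (blue) and 3 LRP5-null (red) libraries, with replicates 1 to 3 as circle, square and triangle, the group mean as a black bar and the filter of 1 TPM as a dotted line. Fpr2 and Fpr1 lie highest, Fpr3 and C3ar1 lie below 0.2 TPM, and C5ar1 spans from 26.8 to 448 TPM.

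None of the 8 receptor genes averaging 1 TPM or more passed an adjusted p of 0.05 between LRP5-null and WT, where 0.532% of all 9775 genes tested did (52 genes, limma). At an unadjusted p under 0.05 there were 2 of the 8, Fpr1 and Fpr2, both lower in LRP5-null, a share near the 23.5% of all genes (9.12% lower and 14.4% higher). The same genes were the 2 of 8 whose groups did not overlap, against 29.7% of all genes in either direction, 12.3% lower and 17.4% higher in LRP5-null. Of the 8 log2 fold changes 5 were below 0 and 3 above, with a median of -0.07 against 0.04 for all genes. Fold changes were taken on log2(TPM + 1), where those of low genes come out too small, and in bulk RNA fewer cells of a type and less RNA per cell cannot be told apart.

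Fpr1 encodes the high-affinity receptor for formyl-methionyl-leucyl-phenylalanine and is the classical receptor for bacterial formyl peptides on neutrophils. It stood at 770, 792 and 812 TPM in WT replicates 1 to 3 and at 624, 630 and 666 TPM in LRP5-null replicates 1 to 3. Every LRP5-null library lay below every WT library, and the gap between the groups was wider than the spread within either. The means were 792 ± 21.3 and 640 ± 22.7 TPM (SD, n = 3 each), a ratio of 0.808. The log2 fold change was -0.31 (SE 0.059, 95% interval -0.44 to -0.17), with a limma adjusted p of 0.0675, which misses the threshold. By its p it ranked 136 of 9775 genes. Without WT replicate 3, a setting that called 1920 genes, the adjusted p of Fpr1 was 0.0209 at a log2 fold change of -0.29, while leaving out each of the other 5 libraries gave adjusted p from 0.117 to 0.295. It was 0.0408 at -0.35 after median-ratio scaling of the TPM values and 0.0499 at -0.28 after trends with GC content and length were removed. It was -0.34 (adjusted p = 0.0921) with the percent of ribosomal reads as a covariate and -0.35 (adjusted p = 0.158) with WT replicate 3 as the only control.

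Fpr2 encodes a receptor of broad range that binds formyl peptides of lower affinity for Fpr1, serum amyloid A, annexin A1 and the cathelicidin encoded by Camp. It stood at 1173, 1311 and 1108 TPM in WT and at 1076, 1071 and 1013 TPM in LRP5-null replicates 1 to 3. The LRP5-null libraries again all lay below the WT libraries, but the lowest of the latter, WT replicate 3, was close to the highest LRP5-null library. The means were 1197 ± 104 and 1053 ± 34.6 TPM (SD, n = 3 each) and the log2 fold change was -0.18 (SE 0.076, 95% interval -0.36 to -0.0048, limma adjusted p = 0.205). It was -0.11 without WT replicate 2, -0.24 without WT replicate 3, -0.11 with the percent of ribosomal reads as a covariate and -0.073 with WT replicate 3 as the only control (adjusted p = 0.464, 0.0505, 0.444 and 0.563). The ratio of Fpr2 to Fpr1 was 1.52, 1.65 and 1.36 in WT and 1.73, 1.70 and 1.52 in LRP5-null libraries, so their proportions overlapped between the groups.

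Fpr3, whose known function is less settled and which is close to Fpr2 in sequence, was listed between 0.0056 and 0.0722 TPM. It was thus a trace of the sum of the 3 formyl peptide receptors, which ran from 1920 to 2103 TPM in WT and from 1679 to 1700 TPM in LRP5-null libraries. Of the genes of the wider family outside immune cells, Fpr-rs3, Fpr-rs4, Fpr-rs6 and Fpr-rs7, which are known from the vomeronasal organ, each was listed at 0 in all libraries.

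**Figure D2:**
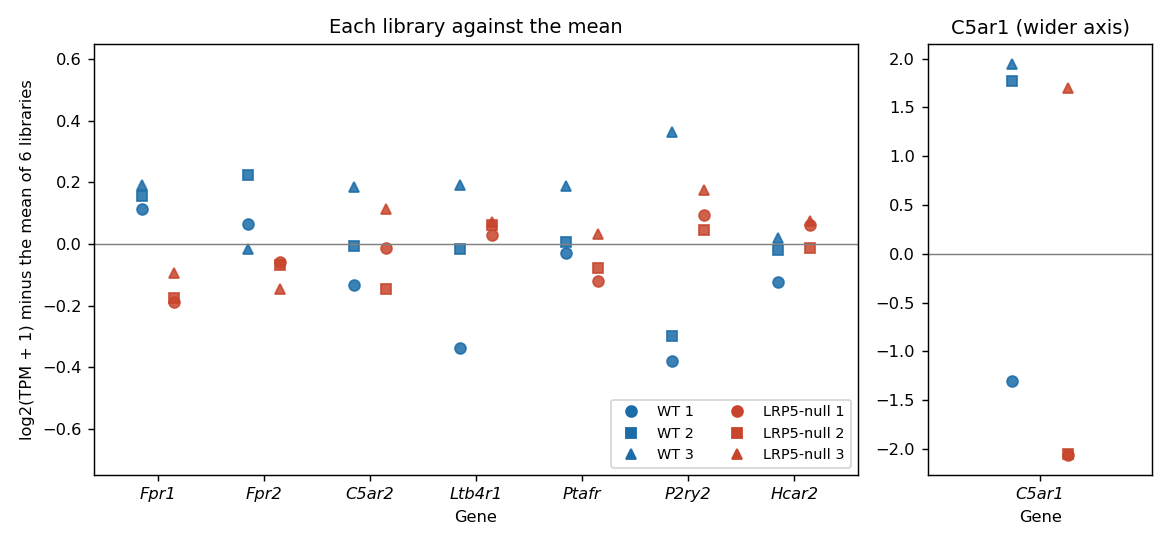
log2(TPM + 1) of each receptor gene in each library, less the mean of the 6 libraries, for 7 genes (left) and for C5ar1 on a wider axis (right), with WT in blue, LRP5-null in red and replicates 1 to 3 as circle, square and triangle. Fpr1 and Fpr2 separate the groups, P2ry2 and Ltb4r1 are lowest in WT replicate 1 and highest in WT replicate 3, and C5ar1 is low in 1 WT and 2 LRP5-null libraries.

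C5ar1, which encodes the signalling receptor for the anaphylatoxin C5a, was split within both groups. It stood at 46.1, 396 and 448 TPM in WT replicates 1 to 3 and at 26.8, 27.0 and 377 TPM in LRP5-null replicates 1 to 3. The highest library was 16.7 times the lowest, the third widest spread among the 1854 genes averaging 50 TPM or more, whose median ratio was 1.27. The means of 297 ± 219 and 143 ± 202 TPM (SD, n = 3 each) thus describe no library, and the log2 fold change of -1.61 had a 95% interval from -4.41 to 1.19 (limma adjusted p = 0.443). Leaving out 1 library at a time moved it between -2.87 (without LRP5-null replicate 3) and -0.98 (without LRP5-null replicate 1), and it was -2.67 without WT replicate 1, with adjusted p from 0.275 to 0.725.

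Total reads, ribosomal and intronic shares and coverage at the 5′ end overlapped between the 3 low libraries and the other 3. Ribosomal reads were 1.2%, 2.69% and 2.93% in the low libraries and 1.3%, 3.3% and 2.98% in the others, and the ratio of coverage at the 5′ end was 0.571, 0.516 and 0.519 against 0.521, 0.502 and 0.515. GENCODE M1 lists 2 transcripts of C5ar1 (ENSMUSG00000049130.6), on the minus strand of chr7:16832092-16844889, and none of 2447 windows of 94 bases along the longer is shared with another gene. Why the level falls into separate sets of libraries was not tested, and the difference between the group means was smaller than the SD within either group.

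C5ar2 (ENSMUSG00000074361.10) encodes a C5a receptor that does not couple to G proteins and lies beside C5ar1, 2588 bases away, on the minus strand of chr7:16819934-16829503, a span that also holds a U6atac gene. It stood at 14.4, 15.8 and 18.2 TPM in WT and at 15.7, 14.3 and 17.3 TPM in LRP5-null libraries, with overlap between the groups. The 3 libraries low in C5ar1 were also the 3 lowest in C5ar2, at 14.3 to 15.7 TPM against 15.8 to 18.2 TPM, a far smaller step. The log2 fold change was -0.030 (95% interval -0.28 to 0.22, limma adjusted p = 0.888) and changed sign without WT replicate 3 (0.055) or LRP5-null replicate 2 (0.035). The ratio of C5ar1 to C5ar2 was 3.20, 25.1 and 24.6 in WT and 1.70, 1.89 and 21.8 in LRP5-null libraries. C3ar1 (ENSMUSG00000040552.8, chr6:122797156-122806179, minus strand), the C3a receptor, known from macrophages, mast cells and eosinophils, was listed between 0.0670 and 0.1074 TPM.

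Ltb4r1 (ENSMUSG00000046908.5, chr14:56384799-56387331, plus strand) encodes BLT1, the receptor for leukotriene B4, a lipid that neutrophils themselves release to relay the call to migrate. It stood at 218, 272 and 314 TPM in WT and at 281, 287 and 289 TPM in LRP5-null replicates 1 to 3. The LRP5-null libraries lay inside the range of the WT libraries, which spread more widely (SD 48.4 against 4.32 TPM). The log2 fold change was 0.11 (95% interval -0.19 to 0.40, limma adjusted p = 0.628) and turned below 0 without WT replicate 1 (-0.035). Ptafr (ENSMUSG00000056529.7, chr4:132119982-132138598, plus strand), the receptor for platelet-activating factor, stood at 102, 105 and 119 TPM in WT and at 96.0, 98.7 and 107 TPM in LRP5-null libraries. These ranges overlapped, with a log2 fold change of -0.11 (95% interval -0.30 to 0.08, limma adjusted p = 0.443). It ran from -0.044 (without WT replicate 3) to -0.15 as libraries were left out, and was -0.21 with the percent of ribosomal reads as a covariate and -0.24 with WT replicate 3 as the only control (adjusted p = 0.197 and 0.264).

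P2ry2 (ENSMUSG00000032860.5, chr7:108145086-108160505, minus strand), the receptor for ATP and UTP that amplifies gradient sensing at the leading edge, was low at 2.24, 2.43 and 4.43 TPM in WT and 3.51, 3.36 and 3.76 TPM in LRP5-null libraries. WT replicate 3 was above all LRP5-null libraries and the other WT libraries were below them. Its log2 fold change was 0.21 (95% interval -0.23 to 0.65, limma adjusted p = 0.525). It was 0.45 without WT replicate 3 (adjusted p = 0.0209), the setting that called 1920 genes, and -0.26 with WT replicate 3 as the only control. Ltb4r1 and P2ry2 have transcripts of 57.8% and 56.5% GC, the highest of the 10 genes, where the median over the tested genes was 49.98%, and both were lower in the WT libraries with few ribosomal reads than in WT replicate 3. With the ribosomal share as a covariate the log2 fold changes were -0.064 for Ltb4r1 and -0.11 for P2ry2. Which of ribosomal share, GC content or group sets these values was not tested. After removal of GC and length trends the log2 fold changes were -0.036 for Ltb4r1 and 0.10 for P2ry2.

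Hcar2 (ENSMUSG00000045502.6, chr5:124313581-124315518, minus strand), a Gi-coupled receptor that restrains neutrophil and adipocyte responses, was the steadiest of the set, at 479, 515 and 529 TPM in WT and 544, 517 and 550 TPM in LRP5-null libraries. The highest library was 1.15 times the lowest, and the log2 fold change was 0.08 (95% interval -0.07 to 0.23, limma adjusted p = 0.466). It ran from 0.041 (without WT replicate 1) to 0.11 as libraries were left out. Relative to Fpr1, Hcar2 was 0.622, 0.650 and 0.652 in WT and 0.873, 0.822 and 0.827 in LRP5-null libraries. The ratio of Ltb4r1 to Fpr1 was 0.283 to 0.387 in WT and 0.435 to 0.456 in LRP5-null libraries, and that of Ptafr to Fpr1 was 0.132 to 0.147 and 0.154 to 0.160. In these 3 ratios the groups did not overlap, whereas the ratio of Fpr2 to Fpr1 overlapped, as given above. All carry the lower Fpr1 in their denominator, so they are not results apart from that of Fpr1. A ratio within a library needs no scaling between libraries, but it shows unequal levels and not which of the genes differs.

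**Figure D3:**
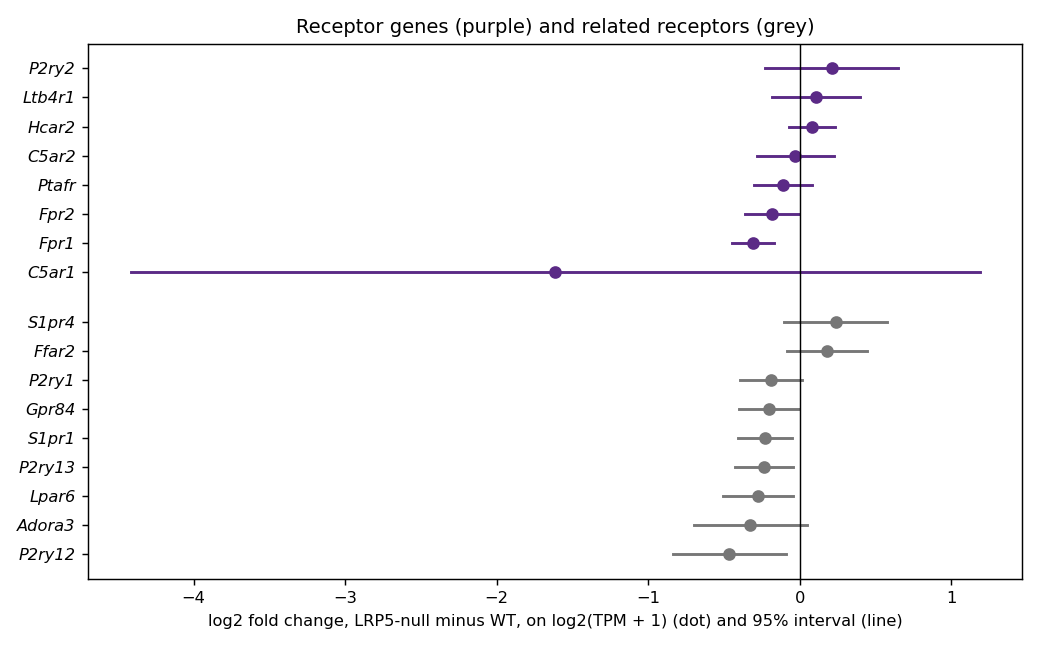
log2 fold change of LRP5-null minus WT on log2(TPM + 1) (dot) with its 95% interval (line, limma) for the 8 receptor genes tested (purple) and the 9 related receptors tested (grey). The intervals of Fpr1 (-0.44 to -0.17) and Fpr2 (-0.36 to -0.0048) lie below 0, that of C5ar1 is the widest, and 7 of the 9 related receptors lie below 0.

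The genes whose levels ran most like those of Fpr1 over the 6 libraries, among 6744 genes averaging 5 TPM or more, were Tmed10 (Pearson r = 0.999), Rab5b (r = 0.997) and Pdia6 (r = 0.994). For Fpr2 they were Rap1a (r = 0.976), Cr1l (r = 0.976) and Prpf31 (r = 0.960). For C5ar1, looked at after its values had been seen, they were Ralgapb (r = 0.994), Hsd17b7 (r = 0.981) and Actr5 (r = 0.973), of which Ralgapb moved only between 18.3 and 21.1 TPM. With 6 libraries that share 2 labels and so many candidate genes, these are descriptions of likeness.

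Of 26 related receptors, among them those for lipids, nucleotides, metabolites and chemerin and the Fpr-rs genes, 9 passed the filter and 0 passed an adjusted p of 0.05, but 5 had an unadjusted p under 0.05, all lower in LRP5-null, where 9.12% of all genes were lower and 14.4% higher. The groups did not overlap for 5 of the 9, all lower, against 12.3% of all genes. Their median log2 fold change was -0.23, against 0.04 for all genes. P2ry12, an ADP receptor best known from platelets and microglia, stood at 6.38, 5.68 and 3.78 TPM in WT and at 3.42, 3.81 and 3.22 TPM in LRP5-null libraries, so that its groups overlapped (log2 fold change -0.47, limma adjusted p = 0.158). S1pr1, the sphingosine-1-phosphate receptor through which lymphocytes leave tissues, stood at 4.04, 3.90 and 3.67 TPM in WT and 3.16, 3.03 and 3.25 TPM in LRP5-null libraries, with no overlap (-0.23, adjusted p = 0.149).

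Downstream of the receptors, 0 of 15 G protein subunits tested passed the adjusted threshold, 1 had an unadjusted p under 0.05 and was higher and 4 were lower (14.4% and 9.12% of all genes), and the median was 0.08. Without overlap, 0 were higher and 6 lower (17.4% and 12.3% of all genes). Gnai2, the most abundant of them and named after its values were seen, was 1167 ± 65.2 and 998 ± 72.7 TPM (SD, n = 3 each). Its log2 fold change was -0.23 (limma adjusted p = 0.153). The Gi subunit gene Gnai3 was 241 ± 17.6 in WT and 193 ± 3.46 TPM in LRP5-null libraries (SD, n = 3 each; log2 fold change -0.32, limma adjusted p = 0.0910). Gng2, a gamma subunit gene, was 49.0 ± 6.15 and 37.1 ± 3.37 TPM (-0.39, adjusted p = 0.124). Of 13 genes of receptor desensitization tested, 0 passed, 1 each was higher and lower at the unadjusted threshold (14.4% and 9.12% of all genes), and the median was 0.01. Without overlap, 1 each was higher and lower (17.4% and 12.3% of all genes). Rgs1, which speeds GTP hydrolysis by Gi proteins, stood at 1.52, 1.99 and 3.72 TPM in WT and 0.735, 0.853 and 1.12 TPM in LRP5-null libraries (-0.79, adjusted p = 0.121), and the receptor kinase gene Grk3 at 0.936 ± 0.060 and 1.33 ± 0.18 TPM (0.26, adjusted p = 0.155; SD, n = 3 each).

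Among 29 tested effectors of chemotaxis, 0 passed the adjusted threshold, 2 were higher and 4 lower at the unadjusted one (14.4% and 9.12% of all genes), and the median was 0.05. Without overlap, 2 were higher and 6 lower (17.4% and 12.3% of all genes). Rap1a, a small GTPase of integrin activation, was 106 ± 16.7 and 72.6 ± 5.42 TPM (SD, n = 3 each; -0.53, limma adjusted p = 0.0892), and Cdc42, which sets the leading edge, was 931 ± 80.4 and 765 ± 6.41 TPM (-0.28, adjusted p = 0.116). Rac1, named after its values were seen, had the largest log2 fold change of these effectors (1.31, adjusted p = 0.218). It was split within WT, at 33.7, 37.5 and 180 TPM, and stood at 146, 154 and 159 TPM in LRP5-null libraries, so its groups overlapped. Of 16 tested genes for ligands and the enzymes that make or break them, 0 passed, 2 were higher and 0 lower at the unadjusted threshold (14.4% and 9.12% of all genes), and the median was 0.07. Camp, whose cathelicidin peptide is a ligand of Fpr2, stood at 12832, 14306 and 14302 TPM in WT and at 18244, 17719 and 16896 TPM in LRP5-null libraries, with no overlap (0.35, adjusted p = 0.0648). Pafah1b3, a subunit of an enzyme that inactivates platelet-activating factor, was 1.23 ± 0.021 and 1.71 ± 0.17 TPM (0.28, adjusted p = 0.130; SD, n = 3 each). The groups did not overlap, with LRP5-null higher, for 3 of the 16, Camp among them, against 17.4% of all genes. Fpr2 was lower without overlap, as were 12.3% of all genes, and neither Camp nor Fpr2 passed the adjusted threshold.

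Fpr1 and Fpr2 rise as neutrophils mature, so stage and cell type markers are given beside them. Of 13 immature neutrophil genes tested, 5 had an unadjusted p under 0.05 and were higher in LRP5-null (14.4% of all genes), 0 were lower (9.12%), 0 passed the adjusted threshold, and the median was 0.12. The 2 with the smallest p were Camp and Elane, the latter encoding a protease of primary granules, at 3.55 ± 0.36 and 4.67 ± 0.29 TPM (SD, n = 3 each; 0.32, limma adjusted p = 0.124). Of 14 mature neutrophil genes, 1 was higher and 4 were lower at the unadjusted threshold, against 14.4% and 9.12% of all genes, 0 passed the adjusted one, and the median was -0.10. Mmp8, a collagenase, was 3807 ± 275 and 2857 ± 160 TPM (SD, n = 3 each; -0.41, adjusted p = 0.0648). Of the 14 general neutrophil markers, which include Camp and Mmp8 as the 2 with the smallest p, 2 were higher and 1 lower at the unadjusted threshold (14.4% and 9.12% of all genes) and the median was -0.04. The summed level of the immature genes ran from 72865 to 80161 TPM in WT and from 75714 to 79894 TPM in LRP5-null. That of the mature genes ran from 37781 to 42049 and from 36562 to 38085 TPM, so both sums overlapped. Their largest parts were Ngp (means of 36517 and 33162 TPM) and Retnlg (20804 and 20446 TPM). Gene by gene, 11 of 13 immature log2 fold changes were above 0 and 10 of 14 mature ones below 0 (5752 and 4023 of all 9775). Without overlap, 6 immature genes were higher and 1 lower, and 1 mature gene was higher and 6 lower (17.4% and 12.3% of all genes). The part of maturation stage in the Fpr1 and Fpr2 values was not tested.

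Markers of other cells were present at very different levels. Of 10 tested monocyte and macrophage markers, 4 were higher at the unadjusted threshold (14.4% of all genes), 0 lower (9.12%) and 0 passed the adjusted one, with a median of 0.10 and summed levels of 629 to 796 TPM in WT and 703 to 765 TPM in LRP5-null, a sum at about the level of Fpr1. Most of it was Ly6c2, at 513 to 664 TPM in WT and 578 to 628 TPM in LRP5-null libraries, named here after its values were seen. Adgre1 was 11.4 ± 1.16 and 14.9 ± 0.65 TPM (SD, n = 3 each; 0.36, limma adjusted p = 0.103) and C1qb 2.54 ± 0.12 and 3.82 ± 0.27 TPM (0.44, adjusted p = 0.0648). Of 6 eosinophil markers 2 were tested, with a median of 0.47 and summed levels of 10.3 to 11.6 and 12.9 to 13.9 TPM. Prg2 rose from 1.02 ± 0.16 to 2.79 ± 0.41 TPM (0.91, adjusted p = 0.0341), while Epx was below 0.2 TPM in every library. Siglecf, the other marker tested and the most abundant of the list, was 8.27 ± 0.83 and 8.47 ± 0.37 TPM (0.034, adjusted p = 0.848). Of 7 T and NK cell markers 2 were tested (median 0.33, summed levels 11.5 to 13.4 and 15.8 to 17.3 TPM), and Cd3d was 10.1 ± 0.69 and 13.9 ± 0.56 TPM (0.43, adjusted p = 0.0651) while Cd3e was below 0.2 TPM in every library and Nkg7 was 1.23 ± 0.47 and 1.59 ± 0.29 TPM.

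In the other marker lists no gene passed the adjusted threshold (limma; SD, n = 3 each), and the genes with the smallest p were as follows. Of 8 B cell markers 5 were tested, with a median of -0.10, summed levels of 24.8 to 35.5 and 28.2 to 28.7 TPM, Cd79a at 4.02 ± 0.52 and 3.41 ± 0.091 TPM and Ms4a1 at 1.68 ± 0.29 and 1.34 ± 0.067 TPM. Of 5 mast cell and basophil markers 2 were tested, with a median of -0.02, sums of 4.76 to 5.96 and 4.96 to 5.31 TPM, Mcpt8 at 1.81 ± 0.51 and 1.69 ± 0.28 TPM and Prss34 at 2.75 ± 0.25 and 2.76 ± 0.14 TPM. Of 8 erythroid markers 4 were tested, with a median of -0.0011 and sums of 48.3 to 57.3 and 42.9 to 54.3 TPM, Hba-a1 at 9.31 ± 0.94 and 7.35 ± 0.78 TPM and Hbb-bt at 4.21 ± 1.30 and 4.82 ± 0.82 TPM. Of 5 megakaryocyte and platelet markers 2 were tested, Pf4 at 1.17 ± 0.42 and 1.22 ± 0.28 TPM and Gp9 at 1.28 ± 0.52 and 1.95 ± 0.17 TPM, with a median of 0.22 and sums of 3.74 to 5.38 and 5.75 to 6.65 TPM. The part of other cells in the receptor values was not tested.

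**Figure D4:**
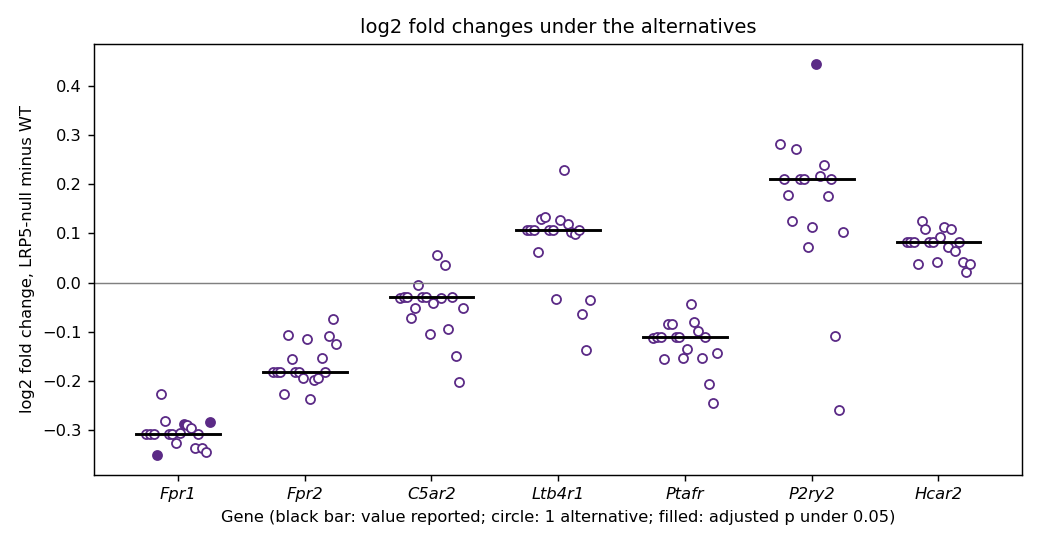
log2 fold change of LRP5-null minus WT for 7 receptor genes as reported (black bar) and under each alternative processing (circle, filled where the adjusted p is under 0.05). Fpr1 and Fpr2 lie below 0 throughout, from -0.35 to -0.23 and from -0.24 to -0.07, while C5ar2, Ltb4r1 and P2ry2 cross 0.

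Across the alternatives tried, Fpr1, Fpr2, C5ar1 and Ptafr stayed lower and Hcar2 stayed higher in LRP5-null, whereas C5ar2, Ltb4r1 and P2ry2 changed sign in at least 1 of them. The summed level of the 10 genes was 2805, 3410 and 3354 TPM in WT and 2667, 2648 and 3023 TPM in LRP5-null libraries. These sums overlapped between the groups. Without C5ar1, left out after its values were seen, the sum was 2759, 3014 and 2906 TPM in WT libraries. In LRP5-null libraries it was 2640, 2621 and 2646 TPM. Fpr1 and Fpr2 made up most of the sum without C5ar1 in every library.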

How the data were processed

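Neutrophil RNA from bone marrow was sequenced in 6 libraries, grouped by genotype label into 3 WT and 3 LRP5-null. The authors deposited TPM values scaled to 1000000 per library over 52636 genes, and name mm9 and DESeq2, while the program behind the TPM is not given in the sources used here. A deposited read summary holds counts of reads, percent of reads by class, ratio values for coverage at transcript ends, a score of coverage variation and fragment sizes. The labels name a Percoll gradient and an mRNA kit, whereas the methods name a sort of CD11b+Ly6G+ cells and single-end reads of stranded total RNA, and the read summary lists paired reads. TPM holds no counts, so no count test was used, the counting error of a gene is unknown, and errors come from the spread between libraries.

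The 9775 genes averaging 1 TPM or more were tested on log2(TPM + 1) with limma 3.58.1 in R 4.3.3, with a mean-variance trend, no covariate and Benjamini-Hochberg adjustment over all of them (threshold 0.05). The fit was tested on simulated data. The members and lists were chosen with earlier results of these data known. Named were all 10 receptor genes, Lrp5 and Lyz2, the called genes (or else the 2 with the smallest p) of each other list, and the 3 genes most like Fpr1 (smallest p) and Fpr2 (highest mean). Of the genes this rule names, 1 is not reported here. The rest, such as likeness to C5ar1, Ly6g, Epx, Cd3e and the Fpr-rs genes, was chosen after values were seen. The lists were related receptors, G protein subunits, desensitization, chemotactic effectors, ligands and their enzymes, neutrophil, immature and mature neutrophil genes, and markers of monocytes and macrophages, eosinophils, mast cells and basophils, B cells, T and NK cells, erythroid cells, and megakaryocytes and platelets.

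Coordinates and sequences are of NCBIM37 with GENCODE M1, in which C5ar2 is Gpr77 and Hcar2 is Niacr1, matched by gene identifier without its version. Coding sequences were aligned with Biopython 1.88. RefSeq promoter windows were matched by symbol for 9 of 10 genes. The alternatives were a pseudocount of 0.1, no filter or one of 5 TPM, median-ratio and quantile scaling, leaving out mitochondrially encoded genes and the 20 most abundant before rescaling, robust shrinkage, no trend, omission of each library, a replicate block, the ribosomal share as a covariate, WT replicate 3 alone, and removal of GC and length trends (known for 89.7% of the genes). The authors' other experiments were not analysed here.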

Additional observations from a re-analysis of the deposited data

How the results depend on the processing

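Of 143 log2 fold changes of the 8 receptor genes under the alternatives, 131 kept their direction and side of the threshold, 4 passed the threshold (Fpr1 in 3, P2ry2 in 1, as given above) and 8 changed sign. Among the changes of sign, Ltb4r1 was -0.064 and P2ry2 -0.11 with the ribosomal share as a covariate. Ltb4r1 was -0.14 and P2ry2 -0.26 with WT replicate 3 as the only control. Ltb4r1 was -0.036 after removal of GC and length trends. The cause was not tested. The log2 fold change of C5ar2 ran from -0.10 to 0.055, of Ltb4r1 from -0.035 to 0.23 and of P2ry2 from 0.072 to 0.45 as libraries were left out in turn. P2ry2 had no value with a filter of 5 TPM, which it did not pass.

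Genes called at an adjusted p under 0.05 numbered 52, and 3 without a filter on low values, 29 with one of 5 TPM, 96 (69 higher, 27 lower) when TPM were rescaled without the most abundant genes, 6 with the ribosomal share as a covariate, 6 with WT replicate 3 as the only control and 430 (157 higher, 273 lower) after removal of GC and length trends. They ranged from 2 (without LRP5-null replicate 1 or 3) to 1920 (without WT replicate 3) as libraries were left out, being 18 and 3 without WT replicate 1 or 2 and 15 without LRP5-null replicate 2. Receptor genes called numbered 0, but 1 (Fpr1) after median-ratio scaling, which called 77 genes and moved the median log2 fold change of all genes from 0.04 to 0.0032, and 1 (Fpr1) after removal of GC and length trends. They ranged from 0 to 2 (Fpr1 and P2ry2, without WT replicate 3) as libraries were left out.

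With the replicate number as a block, 4 genes were called and 0 receptor genes, and Fpr1 was -0.31 (limma adjusted p = 0.128). Deviations from the group means correlated at 0.23, -0.0075 and 0.13 between libraries of the same number, for numbers 1 to 3. Between libraries of unlike number the correlations ran from -0.21 to 0.083, and WT replicate 2 correlated best with LRP5-null replicate 3 (0.022). Whether a shared number marks a pair or a batch was not tested. TPM keeps no depth, so what depth limits for Fpr3, C3ar1 and P2ry2 cannot be given.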
